A study of Arabidopsis thaliana with 21 samples.

Results

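Nuclear genes of Arabidopsis thaliana whose first listed transcript has 20 or more exons are described here from the TAIR10 gene annotation deposited with the series. A script took every protein-coding locus on chromosomes 1 to 5, counted the exon lines of its first listed transcript and kept those at 20 or above, so that the genes were chosen by annotated exon number. This gave 600 of 27206 loci (2.21%). The series itself comprises 21 RNA libraries in 7 groups of 3, all of accession Col-0. They were taken from leaf, herbaceous stem and cambium stem in WT and from the same tissues plus wood stem in soc1-ful, which carries mutations in SOC1 and FUL, MADS-box genes that promote flowering. All plants had 16 h of light at 20 °C, and nothing states how many plants a library pools. The annotation holds no value for any library, so expression is not analysed here and no statement concerns a difference between samples. Annotated positions have no replicates or error, the spreads given are quartiles over genes, exons or introns, and no test was run, because exon number chose the genes and related genes are not independent of each other.

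An intron is removed from the primary transcript by the spliceosome, and the exons on either side are joined. Nearly all plant introns begin with GT and end with AG and are removed by the major spliceosome. A rare class, called U12-type, is removed by the minor spliceosome and is recognised by a conserved start, with either GT or AT as its first bases. An intron between codons is said to be in phase 0, and one that splits a codon after its first or second base in phase 1 or phase 2. In plants introns are typically short, and retention of an intron is a common form of alternative splicing.

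The shortest coding exons of these genes are shown first, because a gene with many exons can hold exons only a few codons long. Each line gives the exon in capitals, 5′ to 3′, with the 8 bases of intron on either side in lower case. The letters were read from the TAIR10.1 sequence, whose chromosomes 1 to 5 have the same lengths as in TAIR10, at the TAIR10 positions. The gene for DNA ligase IV, which joins broken DNA ends, held the shortest, exon 10 of 26 at chr5:23159719-23159725 on the minus strand, with 7 bp. All 5 villin genes, which encode actin filament bundling proteins, held an exon of 11 bp, at exon 16 in VLN1, VLN4 and VLN5, exon 17 in VLN2 and exon 18 in VLN3. Of the class VIII myosins, motor proteins that move along actin, 3 of 4 held an exon of 14 bp.
DNA ligase IV exon 10: taatgcagTTGTGTTgtatcctt
VLN1 exon 16: ctgttcagATGTACTCAAGgtactatt
VLN2 exon 17: ccccgcagGAAAGTTTCAGgtgagatt
VLN3 exon 18: atcctcagGAAAGTTTCAGgtgagaat
VLN4 exon 16: taatccagAAGTTCTCAAGgtgcgtat
VLN5 exon 16: cttaccagAAAGTCTGAAGgtagagta
VIIIA exon 9: ttttgcagTTTTACTAGAAAAGgtaaattc
ATM1 exon 9: ttttgcagTTTTACTAGAAAAGgtagcttc
ATM2 exon 8: ccccatagTTCTGCTAGAGAAGgtactttt

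Exon letters were the same in VLN2 and VLN3, and in VIIIA and ATM1, which is a myosin gene and not the kinase gene ATM. None of these exons has a length that is a multiple of 3, so that leaving one out would shift the reading frame. In the newer TAIR10.1 annotation both introns beside each of the 9 exons are kept. VLN5 and the myosin exons were singled out after their values were seen. Over all 600 genes, 88 of 14076 internal coding exons (0.625%) had 30 bp or less, in 71 genes, against 575 of 77349 (0.743%) in the 20648 coding genes with 2 to 19 exons. At 15 bp or less there were 11 exons (0.0781%, against 0.0905% in genes with 2 to 19 exons). By share, exons this short were thus not more frequent in the 600 genes. Of the 88 exons 33 had a length that is a multiple of 3, beside 50.1% of all internal coding exons of the 600 genes. The longest internal exon of the 600 genes had 3070 bp.

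Introns that start with the letters of the U12-type donor are shown next, because some genes of one family carried them at the same or neighbouring intron numbers. Intron positions were not aligned between genes. The letters ATATCC and GTATCCTT were searched at the first base of each intron on the sense strand, and these do not overlap each other. They opened 44 of 14865 introns of the 600 genes (0.296%), 17 with ATATCC and 27 with GTATCCTT. In coding genes with 2 to 19 exons they opened 209 of 102286 introns (0.204%), and in those with 15 to 19 exons 0.229%. Of the 17 introns that began with AT, 16 ended in AC. The 44 introns lay in 37 genes (6.17% of 600, against 0.964% of genes with 2 to 19 exons), a share of genes that grows with the number of introns searched. Letters in which the minor spliceosome's branch site can be written were searched on the sense strand within the last 40 bases of each intron. They were TCCTTAA and TCCTTGA, or the runs 1 base further on, CCTTAAC and CCTTGAC, which overlap the former. At least 1 of these was present in 19 of the 44 introns (43.2%) and in 0.978% of the other introns of the 600 genes. In genes with 2 to 19 exons these shares were 45.5% and 0.795%. A match is a description of letters and was not checked against splicing.

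NHX5 and NHX6, which encode sodium and proton exchangers, each held such a start in introns 3 and 10, and both ended in AC in each gene. RHD4, SAC8 and ATSAC1B, genes of SAC-domain proteins, held 1 each, in intron 8 of RHD4 and intron 7 of SAC8 and ATSAC1B. The first 20 and last 25 bases are given below, 5′ to 3′, with the searched start (extended over TT where present) and the last 2 bases in capitals. NHX6, RHD4, SAC8 and ATSAC1B were chosen after their values were seen.
NHX5 intron 3, chr1:20296560-20296661, start: ATATCCTTtgcttcaatatc
NHX5 intron 3, end: cttgacatcattcatttgtttgaAC
NHX6 intron 3, chr1:29956361-29956485, start: ATATCCTTaaaatcgagttt
NHX6 intron 3, end: ttttccttgacgtacttgtttgcAC
NHX5 intron 10, chr1:20295164-20295244, start: ATATCCTTcctcgaatcctc
NHX5 intron 10, end: attgtaaaatcttaactcagaacAC
NHX6 intron 10, chr1:29955116-29955202, start: ATATCCTTtttgtgctttta
NHX6 intron 10, end: agttgttagccttaatgtaaagcAC
RHD4 intron 8, chr3:19094318-19094415, start: ATATCCTTtgttatcagttg
RHD4 intron 8, end: aaatctttccttaaccctgattcAC
SAC8 intron 7, chr3:19221430-19221567, start: ATATCCTTttctttatcttc
SAC8 intron 7, end: ttgtttgatattaaccaaggcttAA
ATSAC1B intron 7, chr5:26403467-26403547, start: ATATCCTTtttctatcagtt
ATSAC1B intron 7, end: acaattttccttaaccctgcatcAC

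The positions are in TAIR10, on the minus strand for NHX5, NHX6 and ATSAC1B and on the plus strand for RHD4 and SAC8. The SAC8 intron was the 1 of 17 that did not end in AC. More than 1 such intron was found in 7 of the 37 genes, against 9 of 199 genes with 2 to 19 exons. This share, too, grows with the number of introns searched per gene. The 7 genes were NHX5, NHX6, NRPA2, MSH5, PIR121, DNA ligase IV and AT4G27640. NRPA2 encodes the second subunit of RNA polymerase I, and MSH5 is a meiotic mismatch repair homologue. PIR121 and AT4G27640 were named after their values were seen. In DNA ligase IV 1 of these introns, intron 10 (90 bp), directly follows the exon of 7 bp shown above. The last lower-case letters shown there are the start of that intron. The first of the other members with such a start, in locus order, were the glycosylation gene ALG12 (intron 11), AT1G02890 (intron 5), AT1G20720 (intron 19), AT1G20750 (intron 18), THO2 (intron 33), which encodes a subunit of the THO complex, and AT1G26170 (intron 2). Further on, and chosen after their values were seen, were VLN2 (intron 2), VLN3 (intron 3) and VLN4 (intron 2). The other villin genes, VLN1 and VLN5, held no such start. The 44 introns fell in phase 0 in 14 of 44 cases (31.8%), in phase 1 in 11 and in phase 2 in 19 (43.2%). In genes with 2 to 19 exons, 48 of 206 such introns between coding parts (23.3%) were in phase 0. Phase 1 and phase 2 held 79 each (38.3%). Among all introns between coding parts, phase 0 made up 62.5% with 20 or more exons and 55.5% with 2 to 19. The lower phase 0 share of introns with such a start was thus also seen in genes with fewer exons.

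Exon number ran from 20 to 79 with a median of 23 (quartiles 21 and 27), against a median of 5 in coding genes with 2 to 19 exons. There were 366 genes with 20 to 24 exons, 121 with 25 to 29, 78 with 30 to 39 and 35 with 40 or more. The limit of 20 cuts a falling series without a gap, with 150 genes at 18 exons, 133 at 19, 112 at 20 and 75 at 21. Genes just outside and just inside were alike in median span (5502 bp at 19 exons and 5426.5 bp at 20), in median coding length (2523 and 2698.5 bp) and in median intron length (99.5 and 97 bp). The 600 genes hold 14865 introns, 12.7% of the 117151 introns of all nuclear coding genes, and 6.58% of the coding bases. Chromosome 1 held 175 of them, chromosome 2 75, chromosome 3 125, chromosome 4 84 and chromosome 5 141, which is 2.31% to 3.12% of the coding genes with introns on each, and the strands held 296 and 304.

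**Figure D1:**
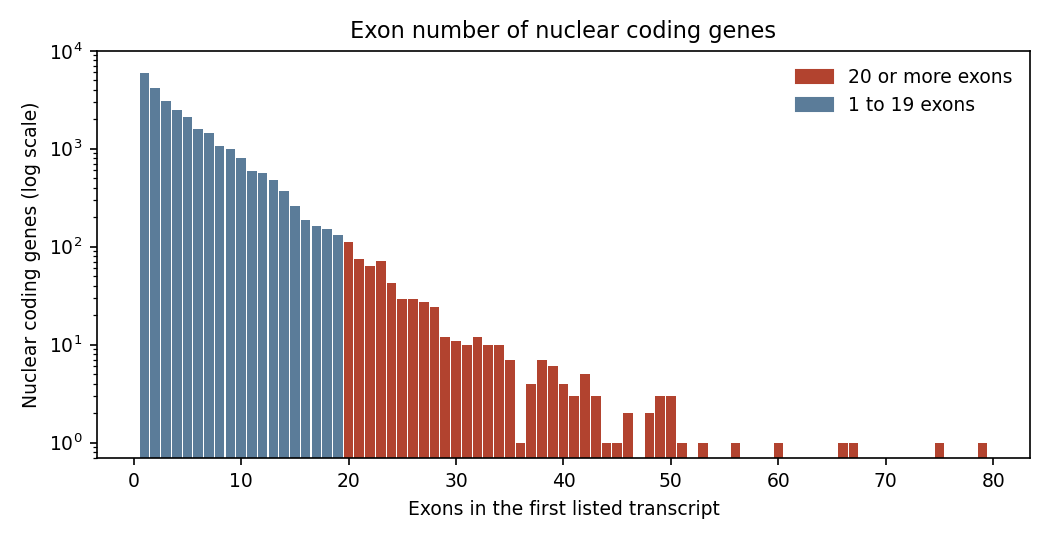
Number of nuclear coding genes (log scale) against exon number of the first listed transcript, with the 600 genes of 20 or more exons in red and the others in blue. The count falls without a gap across the limit, from 133 genes at 19 exons to 112 at 20, and the last bar is ATM at 79.

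The gene with the most exons was ATM (AT3G48190, chr3:17797334-17828591), the kinase that signals DNA double-strand breaks, with 79 exons over 31258 bp, also the longest span. AT1G67120 (chr1:25069562-25095526), which RefSeq names midasin-like, had 75 exons and the longest coding sequence, 16182 bp. AT1G48090 (chr1:17732010-17758444), named a calcium-dependent lipid-binding family protein, had 67 and AT4G17140 (chr4:9613330-9636873), with a pleckstrin homology domain, 66. ILA had 60 exons, the growth-regulating kinase TOR 56, the microtubule-associated protein gene MOR1 53 and AT2G36810, an ARM repeat gene, 51. AT1G02080 (named a transcription regulator) and the callose synthase CALS10 had 50 each, and tied with CALS9. Among the 5 longest spans was also AT5G24740 (19753 bp, 46 exons). TRA1A, which encodes a relative of the PI3-kinases, was among the 5 longest coding sequences with 11577 bp in 35 exons.

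Many exons did not always mean a long protein. The shortest coding sequences of the 600 were 1326 bp in the actin-related protein gene ARP4, 1422 bp in a citrate synthase gene (AT2G44350), 1482 bp in ALG12, 1566 bp in NHX5 and 1587 bp in the aldehyde dehydrogenase gene ALDH5F1. NHX5 has 21 exons and the other 4 have 20. Coding length fell under 1500 bp in 3 genes and exceeded 6000 bp in 45. The median was 3168 bp (quartiles 2630.25 and 4128.75), which is 1055 codons without the stop, against 1095 bp (690 and 1587) in genes with 2 to 19 exons and 2139 bp in those with 15 to 19. Coding length and span follow in part from the exon number that chose the genes. In 573 of the 20648 genes with fewer exons the coding sequence was longer than the median of the 600.

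Exons of these genes were short and their introns ordinary in length. Internal exons had a median of 105 bp (quartiles 75 and 155), against 118 bp (81 and 191) in genes with 2 to 19 exons. The medians were 180 bp with 2 to 4 exons, 129 bp with 5 to 9, 106 bp with 10 to 14 and 103 bp with 15 to 19, and 102, 105, 109 and 113 bp in the 4 classes from 20 to 24 up to 40 or more. From 10 exons on, the median internal exon thus stayed between 102 and 113 bp. The 14865 introns had a median of 101 bp (86 and 160), against 99 bp (86 and 167), and 61.9% of them measured 70 to 120 bp, against 62.6%. Introns over 500 bp made up 1.82% of introns in the 600 genes, 4.35% in genes with 2 to 19 exons and 1.66% in genes with 15 to 19. The shortest intron had 38 bp, and 26 (0.175%) had under 60 bp, against 0.456% in genes with 2 to 19 exons. In genes with 15 to 19 exons this share was 0.164%, and in those with 2 to 4 exons 1.24%.

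**Figure D2:**
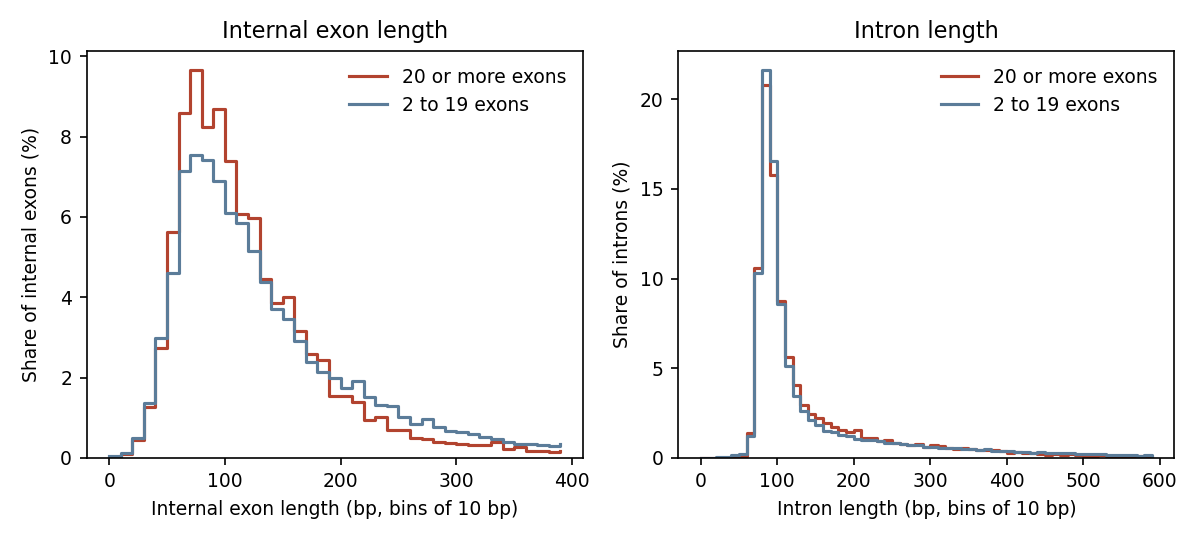
Share of internal exons (left) and introns (right) per 10 bp of length, in genes with 20 or more exons (red) and with 2 to 19 (blue); exons over 400 bp and introns over 600 bp are not drawn. The red exon curve is higher between 50 and 130 bp and lower above 200 bp (medians 105 and 118 bp), while the intron curves nearly coincide (medians 101 and 99 bp).

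The longest introns lay in a few genes. CALS4 (AT5G36870, chr5:14518316-14533930), a callose synthase, had the longest, 4293 bp in intron 14, beside a median of 97.5 bp over its introns. It was followed by AT4G39420 (2540 bp, intron 3), the acetyl-CoA carboxylase gene ACC2 (2512 bp, intron 6), ATM (1727 bp, intron 2) and AT4G10060 (1658 bp, intron 2). An intron over 1500 bp was present in 6 of the 600 genes (1.0%), which are 2.73% of the 220 nuclear coding genes with such an intron. In genes with 2 to 19 exons the share was 1.04%.

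Intron 1 stood apart from the rest in length. Its median was 162 bp (94.75 and 306.25), against 100 bp (86 and 155) for all later introns of the same genes. Introns 2 to 19 had medians between 96 and 107 bp, and the last intron 96 bp. Where intron 1 lay in the 5′ UTR (143 genes, 23.8%) its median was 242 bp, and where it lay in coding sequence (457 genes) 129 bp. In genes with 2 to 19 exons these medians were 273 and 136 bp, and a 5′ UTR intron was present in 16.8%. By class this share was 12.7% with 2 to 4 exons, 19.3% with 5 to 9, 21.9% with 10 to 14 and 23.96% with 15 to 19. The share in the 600 genes was thus close to that in genes with 15 to 19 exons. Intron 1 was the longest of its gene in 116 of 600 genes (19.3%), whereas equal chances for each intron would give 4.29%. For genes with 15 to 19 exons these values were 28.4% and 6.43%.

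**Figure D3:**
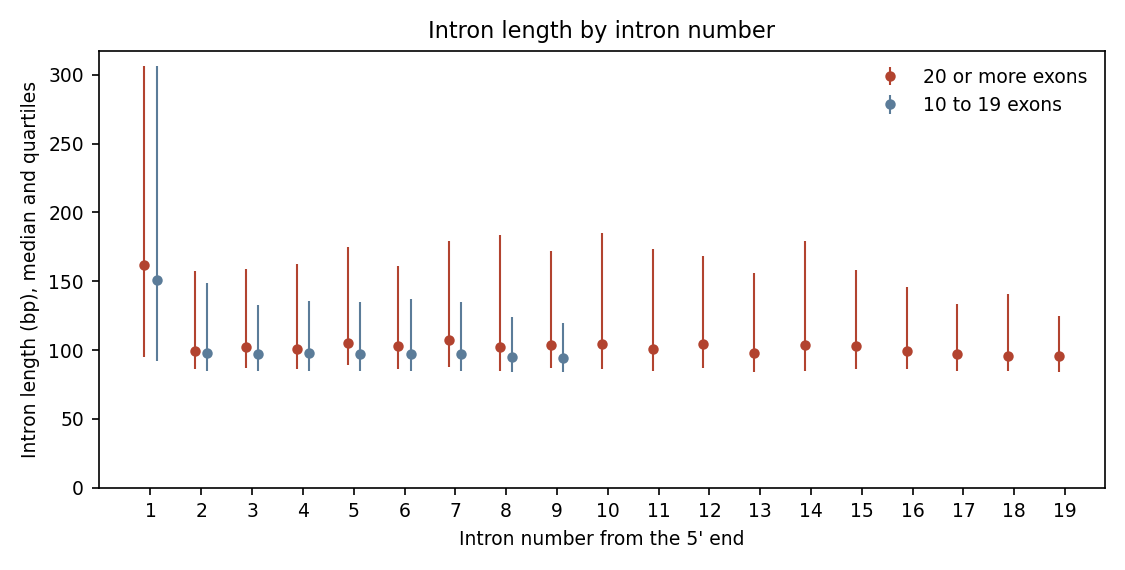
Median intron length with quartiles (bars) by intron number from the 5′ end, in the 600 genes with 20 or more exons (red, introns 1 to 19, each with all 600 genes) and in genes with 10 to 19 exons (blue, introns 1 to 9). Intron 1 is the longest in both (162 and 151 bp), and the later medians of the red group lie between 96 and 107 bp.

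Introns took up a median of 48.7% of the transcribed span (42.5% and 54.2%), against 33.2% in genes with 2 to 19 exons and 45.3% in those with 15 to 19. The largest shares were 69.2% in ECA3, which encodes a calcium pump, 68.7% in AT5G35180, 66.9% in AT5G08650, 65.2% in NRPC2, the second subunit of RNA polymerase III, and 65.0% in MOS14. The smallest were 22.4% in AT4G02660, a BEACH domain gene, 22.7% in DCL1, the Dicer-like enzyme that makes microRNAs, 24.2% in the chromatin remodeller PIE1, 25% in the splicing factor gene AT1G80070 and 26% in the glutamate synthase gene GLT1. Coding sequence had a median GC content of 43.1% (42.3% and 44.0%) in the 600 genes and 44.2% in genes with 2 to 19 exons. Introns had 33.5% and 32.5%. In genes with 15 to 19 exons the medians were close to those of the 600, at 43.5% for coding sequence and 33.4% for introns.

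Phase 0 introns were more frequent in the 600 genes. Of 14671 introns between coding parts, 62.5% were in phase 0, 15.6% in phase 1 and 21.9% in phase 2, against 55.5%, 22.8% and 21.7% in genes with 2 to 19 exons. The share in phase 0 was 48.5% with 2 to 4 exons, 54.9% with 5 to 9, 57.6% with 10 to 14, 61.1% with 15 to 19, 60.2% with 20 to 24, 61.9% with 25 to 29, 68.3% with 30 to 39 and 65.1% with 40 or more. Phase 1 fell from 30.2% at 2 to 4 exons to 11.6% at 30 to 39, and phase 2 stayed between 20.1% and 22.4% in all 8 classes. Internal coding exons with a length that is a multiple of 3 made up 50.1% in the 600 genes and 44.4% in the others (48.4% with 15 to 19 exons). GT to AG was the pair of end letters in 98.6% of introns, GC to AG in 1.22% and AT to AC in 0.108%, against 99%, 0.937% and 0.0469%.

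**Figure D4:**
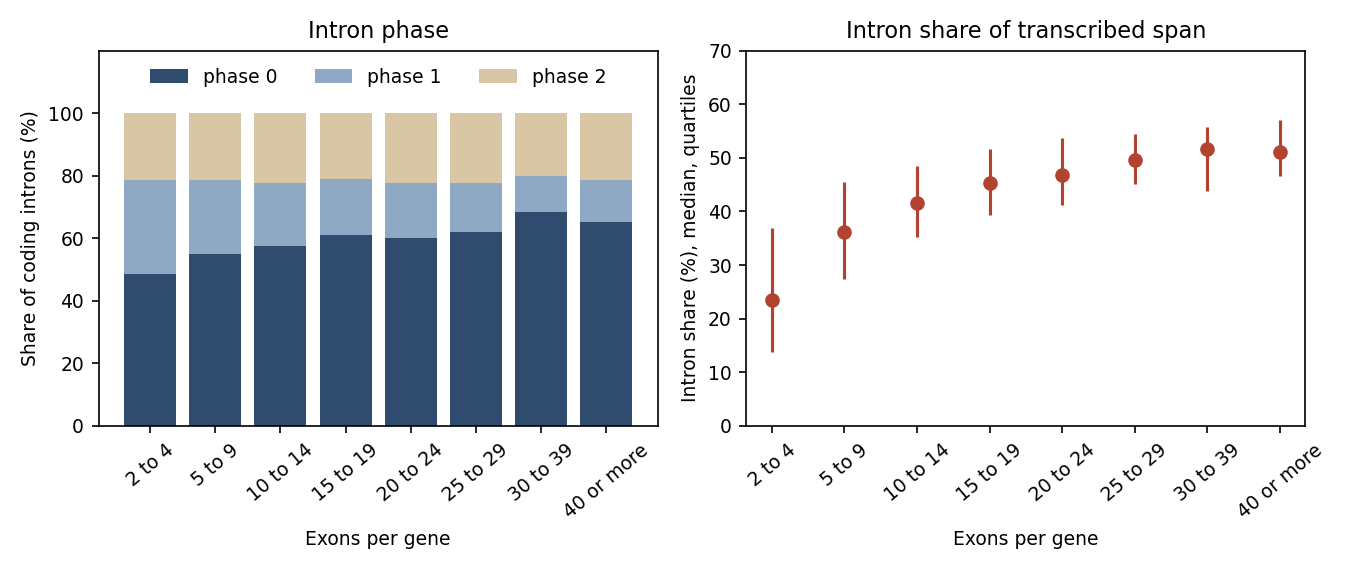
Left, share of coding introns in each phase by number of exons per gene (stacked to 100%); right, intron share of the transcribed span (median with quartiles) by number of exons. Phase 0 makes up 48.5% at 2 to 4 exons and 65.1% at 40 or more, and the median intron share goes from 23.5% to 51.1%.

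Of the 600 genes, 242 (40.3%) had at least 2 isoforms in the annotation, against 25.9% of genes with 2 to 19 exons. The share was 38.4% at 10 to 14 exons and 34.6% at 15 to 19. In the TAIR10.1 annotation, 70.8% of the 600 genes had at least 2 isoforms. The share was 46.5% of the 20530 genes with 2 to 19 exons that have a coding transcript there. DEK1, which encodes a calpain-type protease needed for epidermis formation, AT1G63770 (a peptidase gene) and the coatomer genes AT1G79990 and AT3G15980 had 5 isoforms each, the most, and ALG12 had 4. Of the 242 genes, 109 gave every isoform the same number of exons, and 22 had an isoform with under 20. At least 4 isoforms were listed for 17 genes, 2.83% of the 600 and 4.05% of the 420 nuclear coding genes with that many. The share was 1.92% in genes with 2 to 19 exons, 3.70% in those with 10 to 14 and 2.46% in those with 15 to 19.

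Differences of the other isoforms from the first listed one were sorted by kind. Among the 242 genes, 108 (44.6%) had an alternative acceptor, 73 (30.2%) an alternative donor, 52 (21.5%) a retained intron and 41 (16.9%) a skipped exon, and a gene can have several. Introns beyond the ends that the isoforms share differed in 59 genes (24.4%, against 26.1% of the genes with fewer exons), which gave the largest number of single differences, 282, beside 148 alternative acceptors and 103 alternative donors. Among the 5347 genes with 2 to 19 exons and several isoforms, the shares were 34.6%, 21.0%, 36.0% and 10%. Counted by gene, retained introns thus occurred in a smaller share of the genes with 20 or more exons, and alternative splice sites and skipped exons in a larger one. A share of genes can grow with the number of introns per gene. A rate per intron was not computed, so a larger share does not mean more such differences per intron. All isoforms had the same coding sequence in 32 of the 242 genes (13.2%), against 22.9%.

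Gene families that are known for large proteins were looked up in 12 lists of 202 genes, drawn up with many-exon families in mind, so that their counts describe the families only. Of the 202 genes 108 (53.5%) had 20 or more exons, against 2.82% of all nuclear coding genes with introns. The lists with the highest shares were the myosins (17 of 17, median 38 exons), the callose synthases (10 of 12, median 42), and the Argonaute and Dicer-like proteins of RNA silencing (11 of 14, median 21.5). DNA and RNA polymerase subunits followed with 11 of 15 and proteins of chromosome structure, mismatch repair and the large PI3-kinase-like kinases with 14 of 22. Carbon and nitrogen enzymes reached 6 of 10, chromatin remodelling ATPases 9 of 16, membrane traffic proteins 10 of 19, ABC transporters 12 of 25 and plasma membrane proton and calcium pumps 7 of 21.

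**Figure D5:**
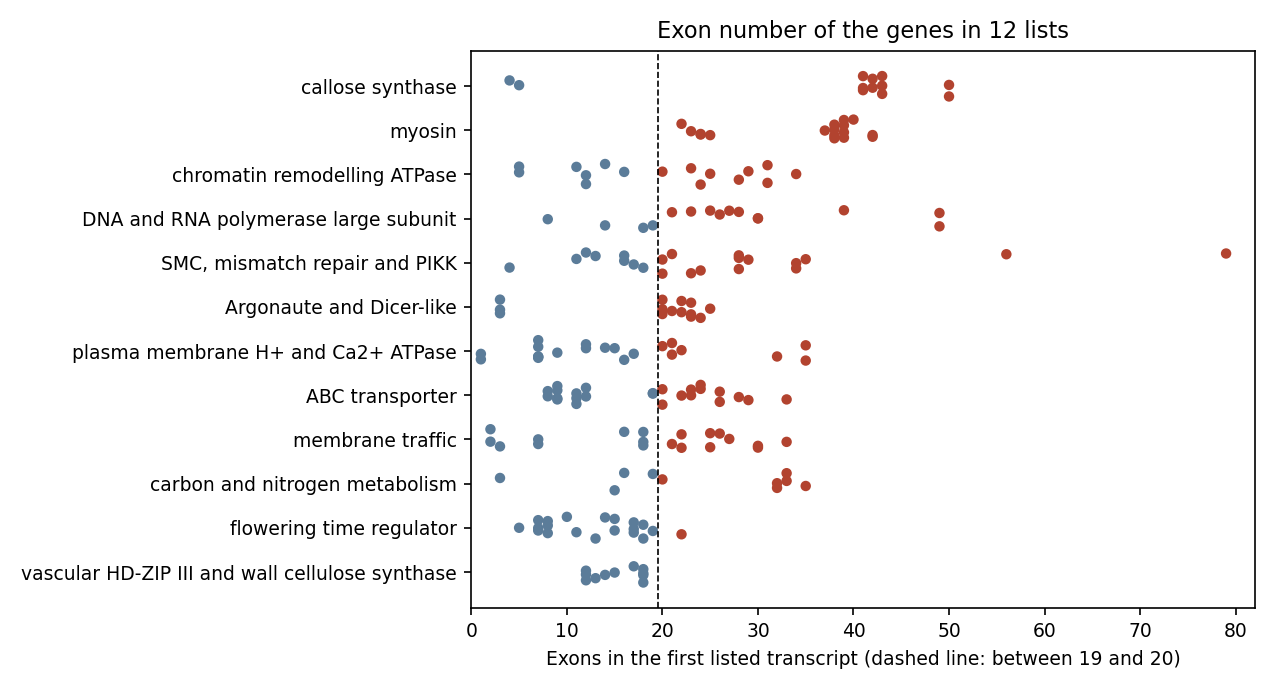
Exon number of each gene (points, spread vertically for legibility) in the 12 lists, with 20 or more exons in red and fewer in blue. Callose synthases split into 10 genes at 41 to 50 exons and 2 at 4 and 5, and the flowering time list has 1 gene past the line.

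Callose synthases make the glucan callose, which is deposited in the cell plate, at plasmodesmata and on sieve plates of the phloem. CALS1, CALS2 and CALS3 had 43 exons, CALS6 and CALS7 42, CALS4, CALS5 and CALS8 41, and CALS9 and CALS10 50. CALS11 and CALS12 had 4 and 5. Coding length varied far less than exon number, from 5307 bp in CALS11 and 5343 bp in CALS12 to 5931 bp in CALS8. Introns took up 4.37% of the span of CALS11 and 8.10% of that of CALS12, against 40.6% in CALS8 to 64.0% in CALS4.

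The same kind of split was seen in other families. Argonaute genes AGO1, AGO4, AGO5, AGO6, AGO8, AGO9 and AGO10 had 20 to 23 exons and AGO2, AGO3 and AGO7 had 3. All 4 Dicer-like genes passed, with 20 (DCL1) to 25 (DCL4). Of the calcium pumps, ACA8 and ACA10 had 35 exons and ACA9 32, ACA1, ACA2, ACA4, ACA7 and ACA11 had 7, and ACA12 and ACA13 a single one, with coding lengths between 3045 and 3261 bp throughout. Proton pumps ranged without such a gap, from 9 in AHA6 to 22 in AHA11. In the exocyst, which tethers secretory vesicles, SEC3A, SEC5A, SEC6, SEC8 and SEC10 had 21 to 27 exons, EXO84B had 7, and SEC15A and SEC15B had 2. SMC5 had 4 exons, whereas its partners SMC6A and SMC6B had 28 and 29.

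Some enzymes of the same class lay on both sides of the limit. The second subunits of the RNA polymerases had 27 exons in NRPA2, 25 in NRPB2 and 39 in NRPC2, and 8 in NRPD2, which serves the silencing polymerases, at coding lengths of 3486 to 3567 bp. The largest subunits had 21 in NRPA1, 28 in NRPC1, 19 in NRPD1, 18 in NRPE1 and 14 in NRPB1. Both catalytic subunits of DNA polymerase epsilon, POL2A and POL2B, had 49. ATM and its relative ATR, the kinase of the replication checkpoint, had 79 and 16 exons and coding lengths of 11538 and 8109 bp. Further list members near the limit were PWD, ABCG29 and ABCG34 with 19 and SMC1, VHA-A1, VHA-A2 and VHA-A3 with 18.

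Of 20 flowering time regulators 1 (5.0%), the Polycomb protein gene EMF2, passed with 22 exons, beside 2.82% of all nuclear coding genes with introns. FCA, an RNA-binding protein of the autonomous pathway, stood at 19 in its first transcript and reached 22 in TAIR10.1, and FY and the histone methyltransferase gene SDG8 at 18. SOC1 and FUL had 8 each. Of the class III HD-ZIP genes, which pattern the vasculature, HB8, REV, PHV and CNA had 18 and PHB 17, and the 6 cellulose synthase genes in the list had 12 to 15. The list of HD-ZIP III and cellulose synthase genes thus had 0 of 11 members at 20 or more, with a median of 15. Both shares are close to that of all genes with introns and are no result about these lists.

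Many of the 600 genes had a series of exons equal in length to those of another gene. A run was counted as shared when at least 5 consecutive internal coding exons had the same lengths, in the same order, in both genes. Of the 600 genes 286 (47.7%) shared such a run with another of the 600, in 450 pairs that join into 101 sets, 68 of them of 2 genes. Among genes with 10 to 19 exons 1513 of 3687 with a run of that length (41.0%) shared one. The lists differed in this. Such a run was shared by 84 of 136 pairs of myosins and 33 of 45 pairs of callose synthases. It was shared by 4 of 55 pairs of Argonaute and Dicer-like genes and 1 of 36 pairs of chromatin remodelling ATPases. In the list of chromosome structure, mismatch repair and large kinases it was 3 of 91 pairs. Common descent was not tested. CALS1 and CALS2, on different chromosomes, had the longest run, 40 exons, and the same coding length of 5853 bp. Of their 42 introns 2 were equal in length, with 5501 and 5276 bp of intron in all. Among the 131 of these pairs with the same exon number, introns were matched by their number over the whole gene. Of the 131, 72 had 0 introns of equal length, 37 had 1, 17 had 2 or 3 and 5 had 4 or more. The pairs were selected for equal exon lengths, so these counts cannot show whether introns differ more often than exons. The most were 12 of 22 in AT3G61480 and AT5G28350, and SEC3A and SEC3B had 9 of 24; AT3G61480, AT5G28350 and SEC3B were chosen after their values were seen. The clathrin heavy chain genes CHC1 and CHC2 shared a run of 28 exons and 3 equal introns of 29. GLU1 and GLU2, ferredoxin-dependent glutamate synthases, shared 24, with 3287 and 5565 bp of intron.

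The largest set, of 15 genes, joined leucine-rich repeat receptor kinases, among them ERECTA (ER), ERL1 and ERL2, which regulate stem growth. It was found, and these genes named, after the values were seen. ERL1 and ERL2 had 27 exons each and shared a run of 21. Next came 13 class XI myosins (25 to 42 exons, longest run 27, in XI-C and XI-E), 11 ABC transporters of the pleiotropic drug resistance type (20 to 24 exons) and the 10 callose synthases with 41 to 50 exons. The 5 villins that share the exon of 11 bp formed a set of their own, with 22 to 26 exons and a longest run of 19. The 4 class VIII myosins formed another, with 22 to 24 exons and a longest run of 21. A run of equal lengths also linked members with 73 genes of under 20 exons.

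Within the 14865 introns lay 2 whole annotated loci of any class, 0.135 loci per 1000 introns. In genes with 2 to 19 exons there were 73 such loci, 0.714 per 1000 introns. Counted by gene, 2 of 600 (0.333%) were hosts, against 53 of 20648 (0.257%). Both loci nested in the 600 genes were microRNA genes on the strand of their host. MIR838 (chr1:28500-28706) lies in intron 14 of DCL1, an intron of 276 bp, and MIR862 (chr2:10718096-10718198) in intron 15 of the chromatin remodeller gene PKL, with 757 bp.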

How the data were processed

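The authors deposited a TAIR10 annotation of 590264 lines and 9 columns. Each line places a feature by its first and last base, 1-based; no line has a score, and 0 columns belong to a library, so depth is not analysed here. TAIR10, TopHat2 2.0.8 and Trimmomatic 0.0.3 are named, without roles, per the submitters' processing notes. The making of the gene models was not stated.

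Exon, intron, coding and isoform values were computed with Python 3.11.15, numpy 2.4.6 and pandas 2.3.3, from the first listed transcript (suffix 1 where present) unless stated. Internal exons exclude the first and last exon; internal coding exons lie wholly in coding sequence. Intervals were exact binomial at 95% for shares and order-statistic for medians (scipy 1.17.1). The structure and isoform steps were tested on simulated data. Figures were drawn with matplotlib 3.10.9.

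Sequence came from RefSeq's TAIR10.1, with chromosome lengths equal to TAIR10; 598 of the 600 genes gave an intact reading frame. Symbols and product names are RefSeq's, found for all 600 loci, or those of the lists, whose 202 loci were all found (186 symbols matched). Genes, lists and thresholds were chosen with earlier results of these data known. Named genes were, by rule, those at either extreme of each measure (10 for exon number, 5 otherwise), list members at 18 or more exons, up to 8 with a searched intron start, and hosts of nested loci; exceptions are marked, except that list members with fewer exons were named to show splits within families.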

Additional observations from a re-analysis of the deposited data

How the results depend on the processing

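Annotated values have no depth; what limits them is the annotation. The fewest-exon count in TAIR10.1 and the exon number by the most-exon isoform were chosen after the data were examined. The number of genes was 617 by the isoform with the most exons, 566 by coding parts, 883 at 18 or more exons, and 637 or 537 in TAIR10.1 by the isoform with the most or fewest exons. Of 36 alternative values, 21 stayed within their interval or within 1.5 times of the count. These intervals treat genes, exons and introns as independent draws, which they are not. They serve only as a yardstick for the size of a change and measure no error of the annotation. At 25 or more exons there were 234 genes, with medians of 108 bp for internal exons, 103 bp for introns, 3820.5 bp for coding length, 8733.5 bp for span and 50.8% for the intron share; 44.4% had several isoforms, 64.8% of introns were in phase 0, 51.6% of internal coding exons were a multiple of 3, and intron 1 was the longest in 16.2%. With both UTRs annotated (431 genes), coding length was 3078 bp and 47.3% had several isoforms. The median internal exon was 102 bp without the list genes, the median of per-gene intron medians 102.25 bp, and exons of 15 bp or less made up 0.0781%. The cause was not tested. No paired analysis was possible because the annotation carries no replicate numbers and no result comes from a test.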

Other observations

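RefSeq product names of the 600 genes were searched for 12 words, chosen after the files were seen. Helicase stood in 24 names (4.0%, against 0.479% of genes with 2 to 19 exons), ARM repeat in 26 (4.33% against 0.397%), ATPase in 17 (2.83% against 0.591%), polymerase in 14 (2.33% against 0.702%) and kinesin in 8 (1.33% against 0.0969%). Kinase was about as frequent in both, with 40 names (6.67%) against 5.52%. Transcription factor stood in 4 names (0.667% against 1.39%), zinc finger in 3 (0.50% against 1.84%) and transporter in 5 (0.833% against 1.95%). The last word misses most ABC transporters among the 600 genes, whose names read pleiotropic drug resistance or multidrug resistance-associated protein. F-box, cytochrome P450 and pentatricopeptide stood in 0 of the 600 names, against 1.77%, 0.978% and 0.363%. Names of one family recur, so these counts are not independent.

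The TAIR10.1 annotation kept 14806 of the 14865 introns (99.6%), and all introns of 575 genes. The 59 introns it lacks lie in 25 genes. In 4 genes every TAIR10.1 isoform had under 20 exons. AT4G23370 went from 21 exons to 7, AT3G48830 from 27 to 14, AT3G07250 from 25 to 15 and AT5G17250 from 20 to 19. These 4 genes were named after their values were seen. In 70 genes TAIR10.1 had isoforms on both sides of the limit, and 32 genes under 20 exons in TAIR10 had a TAIR10.1 isoform at or above it. The exon of 15 bp in ATM (exon 59) is the shortest of the 600 genes that lacks one of its adjoining introns in TAIR10.1.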
